A study of Homo sapiens with 3 samples.

Results

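The genes described here are those whose RNA level changed at least 2-fold in the osimertinib-resistant line OR2 while the sister line OR1 stayed near the parental line H1975. H1975 is a human lung adenocarcinoma line with an activating mutation and the gatekeeper mutation in EGFR. OR1 and OR2 were selected independently from separate flasks of H1975 over 4 months in osimertinib, which was raised until it reached 2 μmol/L, and the study refers to them as clones, so each stands for a single selection. All 3 lines were grown in serum-supplemented RPMI medium, were not further authenticated, and were each hybridized to 1 single-colour Agilent array on the same slide. A gene was a member if its OR2/H1975 ratio was at least 2 or at most 0.5 while its OR1/H1975 ratio lay from 0.67 to 1.5, or if its probe was well above background in OR2 alone, or in H1975 and OR1 but not in OR2, with a bound on the ratio past the same limits. The rule found 368 members among 43316 genes on the array, of which 21689 were well above background in H1975 or OR2. There were 128 higher genes, 80 genes switched on, 121 lower genes and 39 genes switched off. With 1 array per line there is no replicate check, and each ratio compares 1 array with 1 array. Intensities are printed as deposited, and ratios were taken after each array was centred on its 75th percentile. A probe counted as well above background where the scanner software marked it so.

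Osimertinib binds covalently to mutant EGFR, a receptor tyrosine kinase that drives ERK and AKT signalling in these tumour cells. Cells that survive long exposure often depend on other inputs to the same pathways, among them SRC family kinases, matrix receptors and secreted ligands, and often shift between epithelial and mesenchymal expression. Lines selected side by side can share a resistance phenotype and still carry different expression changes.

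Between 45.6% and 45.9% of probes were well above background on the 3 arrays, and no spot was saturated. The median technical SD of a log2 OR2/H1975 ratio, from the scanner software's error estimate, was 0.20 over 18591 genes detected in all lines. It does not include differences between cultures. Of 9 lung adenocarcinoma markers 8 were well above background in each line, surfactant gene SFTPB being the exception. Several of them were far lower in both resistant lines, however, with EPCAM at 0.0725 of H1975 in OR2 and 0.0370 in OR1, CDH1 at 0.0800 and 0.0205, and KRT7 at 0.170 and 0.164. The summed intensity of the 9 was 391417 in H1975 against 148109 in OR1 and 173415 in OR2. KRT19 was at 0.492 in OR2 and 0.463 in OR1. KRT8 (0.964 in OR2, 1.12 in OR1) and KRT18 (0.806 and 0.884) stayed closer to H1975. NKX2-1 was at 1.36 in OR2 but 0.252 in OR1, and the dim NAPSA at 1.57 and 0.770. The epithelial label was therefore met by detection, but by level only for some of the markers in OR1 and OR2. Fibroblast markers above background numbered 2, 3 and 1 of 7 in H1975, OR1 and OR2, with DCN, COL3A1, PDGFRA and THY1 not well above background in any line. Of 5 endothelial and 5 leukocyte markers matched on the array, 3 each were above background in every line, with summed intensities of 94.8 to 110 and of 582 (H1975), 1225 (OR1) and 2182 (OR2). The latter was mostly CD14, and PTPRC, the pan-leukocyte marker, stayed at 20.5 to 21.0.

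In OR2, 1675 genes (7.72% of those well above background in H1975 or OR2) were at least 2-fold higher than in H1975 and 1886 genes (8.7%) were at most 0.5. OR1 passed the same ratio for 1141 of the higher and 1417 of the lower genes. The members were therefore a minority, with 208 in the higher direction (0.959% of the genes) and 160 in the lower direction (0.738%). Below, these shares, over 21689 genes, stand as those of all genes. Shares of gene lists are over listed genes well above background on at least 1 array, a slightly wider base (22418 genes on the whole array). For a further 218 higher and 265 lower genes OR1 left the window in the same direction as OR2 without reaching the limit. Counts in these directions depended on the scaling. The members were 56.5% higher or switched on in the main setting, 78.3% without scaling and 96.6% with scaling on spike-in probes, which moved the median log2 OR1/H1975 of all genes from 0.03 to -0.57.

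**Figure D1:**
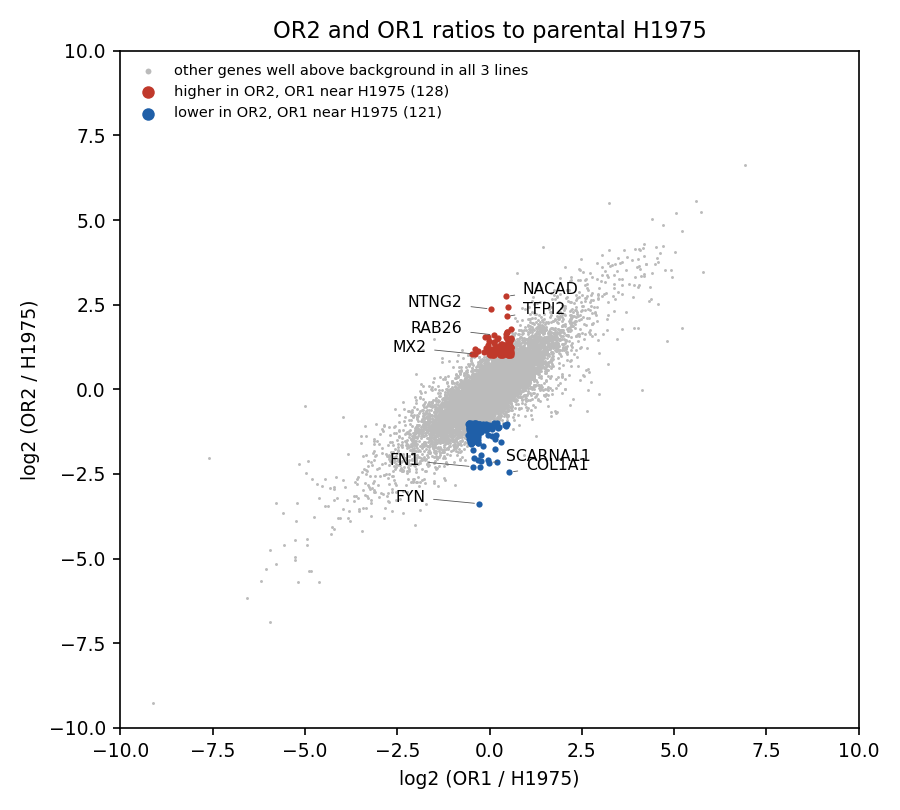
Log2 ratios to H1975 of the genes well above background in all 3 lines, OR1 on the horizontal and OR2 on the vertical axis, 1 point per gene. The 128 higher (red) and 121 lower (blue) members lie above and below the cloud inside the narrow OR1 window, with FYN the furthest below and NACAD the furthest above.

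Most members did not lie at an OR1 ratio of 1. The median OR1/H1975 ratio was 1.28 among the higher members and 0.789 among the lower ones, so OR1 leaned towards OR2 in 114 of 128 (89.1%) and 104 of 121 (86%). Both ratios are divided by the same H1975 array, so an error in its reading moves both in the same direction. The share of the lean that comes from this was not tested. When OR2 was set against OR1 directly, 41 higher and 53 lower members differed by at least 2-fold, and with the switched genes 182 of the 368 did. The name "specific to OR2" therefore describes only part of the members. At the limits, BRD3 (2.01 in OR2, 1.499 in OR1) was the last gene inside on both the OR2 and the OR1 side, with lnc-ZNF667-1 (1.9995 in OR2, 1.27 in OR1) and RP2 (2.11 in OR2, 1.502 in OR1) just outside. Among lower genes lnc-RP11-597K23.2.1-2 (0.4994) was inside and XLOC_l2_012210 (0.5002) outside the OR2 limit, while SPNS2 (0.6702) was inside and AGPS (0.6693) outside the OR1 limit.

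**Figure D2:**
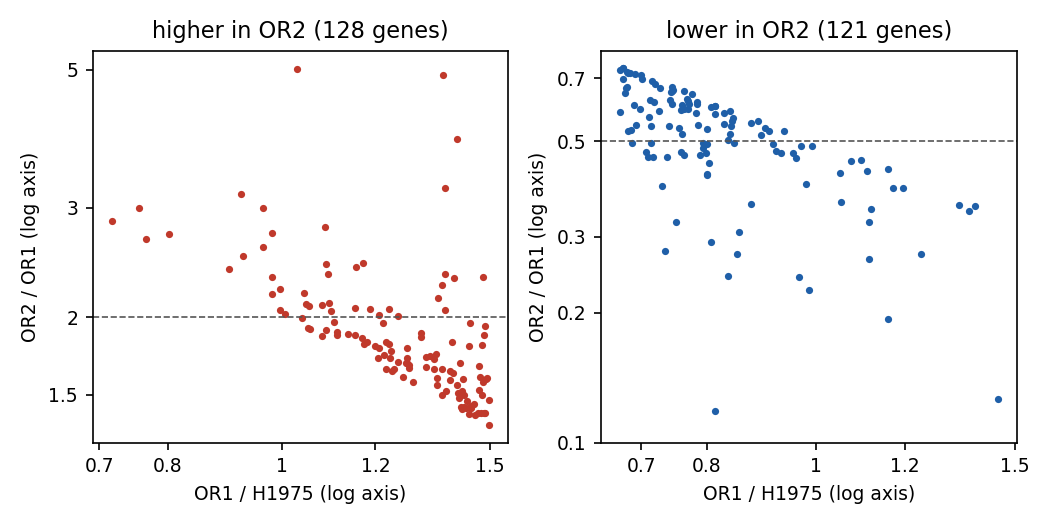
OR2/OR1 ratio against OR1/H1975 ratio for the 128 higher (left) and 121 lower (right) members, both axes on a log scale, 1 point per gene. The dashed line marks a 2-fold difference between the resistant lines, which 41 higher members lie above and 53 lower members lie below.

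The gene with the lowest ratio was FYN, a SRC family kinase that relays signals from integrins and receptor kinases. FYN intensity was 572 in H1975 and 408 in OR1 against 56.5 in OR2, so that OR2 alone was low. The OR2/H1975 ratio was 0.0962 (log2 -3.38, technical SD 0.22) and the OR1/H1975 ratio 0.813. Its single probe, for NM_002037, lies at chr6:111982711-111982770 (hg19). Of the other SRC family kinases and their inhibitor CSK, none met the rule: in OR2 YES1 was at 1.22 and SRC at 1.39, and LYN (0.941) and CSK (0.966) lay so close to 1 that their side of it depended on the scaling. LCK and FRK were not well above background in either resistant line, and FGR was above background in both but not in H1975.

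NEDD9 and SHB code for adaptors that work next to these kinases, NEDD9 as a docking protein of focal adhesions and SHB as an SH2 adaptor of receptor kinases. NEDD9 intensity was 127 in H1975 and 93.4 in OR1 against 26.7 in OR2, a ratio of 0.204 in OR2 (log2 -2.29, technical SD 0.27) and 0.835 in OR1. The pattern belonged to the brightest probe, for NM_182966. A second NEDD9 probe, for NM_006403, read 101 in H1975 and 19.6 in OR1 against 8.62 in OR2, so this form was low in both resistant lines. SHB was at 636, 430 and 313, a ratio of 0.478 in OR2 and 0.771 in OR1, and its other probe was at background in every line. EPHA4, an ephrin receptor, was at 45.8 in H1975 and 37.2 in OR1 and not well above background in OR2 (7.36), at most 0.268 of H1975. It was the only member among 36 receptor tyrosine kinases detected (2.78%, beside 0.738% of all genes).

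Extracellular matrix genes moved in both directions. COL1A1, the main chain of type I collagen, was at an intensity of 461 in H1975 and 585 in OR1 against 86.8 in OR2, giving 0.183 in OR2 (log2 -2.45, technical SD 0.21) against 1.45 in OR1. In the main scaling the resistant lines thus lay on opposite sides of H1975, and OR2 was at 0.127 of OR1. COL1A2, the partner chain of type I collagen, had no such split. It was at 200, 28.3 and 5.65, or 0.162 of H1975 in OR1 and at most 0.0615 in OR2, where it was not well above background. COL1A1 is also a fibroblast marker, and the summed intensity of the 7 fibroblast markers was 675, 687 and 107.3 in H1975, OR1 and OR2, most of it COL1A1 itself. In RNA from whole cultures, fewer cells with a transcript and less of it per cell cannot be told apart. FN1, the mesenchymal matrix protein fibronectin, was dim throughout at 73.7, 47.5 and 15.5, with a ratio of 0.205 in OR2 and 0.735 in OR1. It had 1 probe, assigned to 1 transcript form, so other forms may not have been measured. In OR2 the probe read close to the array's lowest detected signal of 12.6 (technical SD of the log2 ratio 0.35). MGP, an inhibitor of calcification, was at 2854 in H1975 and 2130 in OR1, with OR2 below both at 682 (ratio 0.233). A second MGP probe gave nearly the same values, 0.231 in OR2 and 0.783 in OR1.

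COL16A1, a fibril-associated collagen, was at 385, 452 and 189 (0.477 in OR2, 1.34 in OR1), but its second probe gave 0.685. COL4A2, a basement membrane collagen chain, lay just inside the limit at 0.498 in OR2 and 0.674 in OR1. The opposite was seen for COL6A1, a chain of type VI collagen, at 4099 in H1975 and 3883 in OR1 against 9525 in OR2 (2.26 in OR2, 1.08 in OR1). Of 50 matrix genes well above background on at least 1 array, 13 (26%, beside 7.72% of all genes) were at least 2-fold higher in OR2 and 12 (24%, beside 8.7%) at most 0.5. Members were COL6A1 in the higher direction (2%, beside 0.959%) and COL1A1, COL16A1 and COL4A2 in the lower (6%, beside 0.738%). The median log2 OR2/H1975 of the list was -0.11, beside -0.05 over all genes. Among proteases, MMP2, the gelatinase that cleaves type IV collagen, was not well above background in H1975 (4.27) or OR1 (2.56) and reached 53.0 in OR2, at least 4.10-fold higher. ADAMTS6, a secreted metalloprotease, was at 44.4, 41.0 and 17.4 (0.381 in OR2, 1.05 in OR1), and GPC4, a heparan sulfate proteoglycan, at 67.1, 65.9 and 26.9 (0.390 in OR2, 1.12 in OR1).

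Secreted ligands with the rule's pattern were mostly lower. VEGFA, the main angiogenic growth factor, was at 1615 in H1975 and 1083 in OR1 against 590 in OR2 (0.356 in OR2, 0.765 in OR1), and its second probe gave 0.516. TGFB1, which drives matrix synthesis and mesenchymal transition, was at 541, 326 and 189 (0.340 in OR2, 0.688 in OR1). PTN, a heparin-binding growth factor, was at 102, 71.5 and 35.1 (0.336 in OR2, 0.801 in OR1). For these 3 genes OR1 was also under H1975, by less than OR2. ARTN, a ligand of the GDNF family (0.438), and FGF11, an intracellular relative of the FGFs (0.461), completed 5 lower members of 45 ligands detected (11.1%, beside 0.738% of all genes). The 2 higher ligands (4.44%, beside 0.959%) were GDF15, a stress-induced TGF-beta relative, at 1878, 2331 and 4617 (2.39 in OR2, 1.42 in OR1), and NOV. ANGPTL4, an inhibitor of lipoprotein lipase that responds to low oxygen, was at 3658, 2532 and 1382 (0.368 in OR2, 0.789 in OR1). It and VEGFA were the only members among 40 hypoxia and glycolysis genes (5%, beside 0.738% of all genes). The median log2 ratio of that list was -0.18 in OR2 and -0.07 in OR1.

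ACKR3, a scavenging receptor for the chemokine CXCL12, was at 204 in H1975 and 157 in OR1 against 65.7 in OR2 (0.313 in OR2, 0.876 in OR1). NPR3, the clearance receptor of natriuretic peptides, was at 79.2, 80.5 and 18.3 (0.225 in OR2, 1.16 in OR1), and a second probe put it below background in OR2 alone. SLC37A2, a sugar phosphate transporter, was at 468, 309 and 118 (0.245 in OR2, 0.752 in OR1), with 0.376 and 0.656 on a second probe. GSTP1, a glutathione transferase, was the brightest lower member in H1975, at 175698, 120677 and 82291 (0.456 in OR2, 0.783 in OR1). BMF, which promotes apoptosis, was at 184, 169 and 83.7 (0.444 in OR2, 1.05 in OR1), and ID4, an inhibitor of helix-loop-helix factors, was at 0.455. OCLN, a tight junction protein, was at 0.448 in OR2 and 0.759 in OR1, but a dim second probe (36.8, 32.4 and 31.1) gave 0.823 and 1.002. It was the only epithelial junction gene of 44 with the pattern (2.27%, beside 0.738% of all genes). In OR2, 31 of the 44 (70.5%, beside 8.7%) were at most 0.5, and in OR1 30 were.

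**Figure D3:**
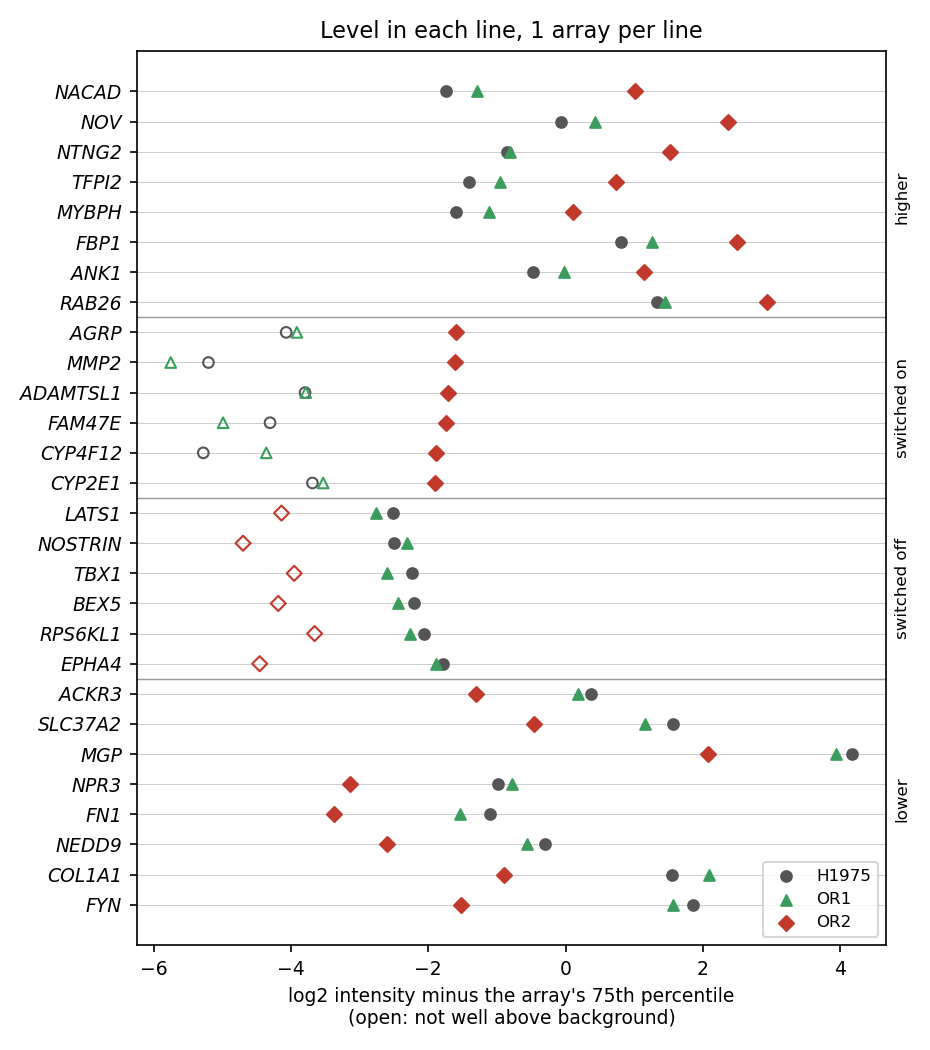
Log2 intensity minus the array's 75th percentile in H1975 (circles), OR1 (triangles) and OR2 (diamonds) for the 8 highest, 8 lowest, 6 switched-on and 6 switched-off members with an mRNA accession, 1 array per line, open symbols not well above background. OR2 stands apart from H1975 and OR1 in every row. In most rows, NACAD, NOV and TFPI2 among them, the OR1 symbol lies between those of H1975 and OR2, with COL1A1 and NPR3 among the exceptions.

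The highest member was NACAD, a relative of the nascent polypeptide-associated complex, with intensities of 47.3 in H1975 and 56.7 in OR1 against 325 in OR2. The OR2/H1975 ratio was 6.70 (log2 2.74, technical SD 0.22) and the OR1/H1975 ratio 1.37. NTNG2, a membrane-anchored netrin, was at 87.2, 78.7 and 463, so H1975 and OR1 were alike and OR2 was 5.17-fold higher. Its other probe, for another transcript, was not well above background in any line. NOV, a matricellular CCN protein (also CCN3), was at 150, 185 and 838 (5.44 in OR2, 1.41 in OR1). TFPI2, a matrix-bound serine protease inhibitor, was at 59.3, 71.5 and 270 (4.44 in OR2, 1.38 in OR1). MYBPH, a myosin-binding protein, FBP1, the rate-limiting enzyme of gluconeogenesis, and ANK1, an ankyrin of the membrane skeleton, followed at 3.24, 3.22 and 3.08. RAB26, a GTPase of secretory vesicles, was at 396, 377 and 1237 (3.04 in OR2, 1.09 in OR1). Another probe of ANK1 lay above the limit too at 3.58, with OR1 at 1.80.

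Several higher members are transcription factors, chosen here for description after their values were seen. AHR, the receptor for aryl hydrocarbons, was at 1268 in H1975 and 1459 in OR1 against 3221 in OR2 (2.47 in OR2, 1.31 in OR1), and its second probe gave 2.07 and 1.48. TFAP2A, an AP-2 factor of epithelial and neural crest cells, was at 62.6, 81.4 and 178 (2.77 in OR2, 1.48 in OR1), with 2.47 and 1.97 on a second probe. CEBPA, a factor of differentiation in epithelium and myeloid cells, was at 92.7, 108 and 220 (2.31 in OR2, 1.33 in OR1). RXRA, the partner of many nuclear receptors, was at 3900, 3945 and 8667 (2.16 in OR2, 1.15 in OR1).

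The DNA motifs of these factors were counted in the 250 bases before the start of each gene in RefSeq's promoter table (GRCh38.p14), on both strands. The AP-2 motif GCCNNNGGC was present in 28 of 111 promoters of higher and switched-on members (25.2%) and 18 of 58 of lower and switched-off members (31%), against 26.7% over genes above background in H1975 or OR2 and 19.7% over all promoters. The AHR core GCGTG was in 40.5% and 37.9%, against 43.4% and 31.9%. The C/EBP motif TTGCNNAA was in 3.6% and 6.9%, against 6.16% and 9.13%, and the nuclear receptor site AGGTCA in 11.7% and 13.8%, against 9.4% and 12.1%. The promoters of the lowest and the highest member are given below, with AP-2 motifs in capitals. They run from 5′ to 3′ along the gene, both on the minus strand, at chr6:111873453-111873702 for FYN and chr7:45088970-45089219 for NACAD.
FYN: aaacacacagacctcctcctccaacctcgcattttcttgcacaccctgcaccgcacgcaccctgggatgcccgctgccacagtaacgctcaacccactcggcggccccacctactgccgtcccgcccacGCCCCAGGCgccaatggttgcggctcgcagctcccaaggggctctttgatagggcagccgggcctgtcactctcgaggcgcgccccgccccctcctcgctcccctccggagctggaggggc
NACAD: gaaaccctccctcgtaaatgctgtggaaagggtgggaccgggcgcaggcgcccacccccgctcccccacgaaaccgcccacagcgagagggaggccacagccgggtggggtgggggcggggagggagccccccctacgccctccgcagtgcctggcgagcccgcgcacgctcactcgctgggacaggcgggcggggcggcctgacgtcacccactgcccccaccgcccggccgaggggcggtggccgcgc
The FYN window held 1 AP-2 match and the NACAD window 0.

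Interferon-stimulated genes gave 3 higher members of 50 detected (6%, beside 0.959% of all genes). IFIT2, which restrains viral translation, was at 2474 in H1975 and 2768 in OR1 against 5796 in OR2 (2.28 in OR2, 1.28 in OR1), and its second probe gave 2.01 and 1.11. HERC5, the ligase that attaches ISG15, was at 407, 359 and 851 (2.03 in OR2, 1.006 in OR1). MX2, a dynamin-like antiviral GTPase, was at 198, 133 and 417 (2.05 in OR2, 0.768 in OR1), although a dim second probe for another transcript gave 1.17 in OR2 and 1.71 in OR1. These 3 were not typical of the list. Its median log2 ratio was -0.33 in OR2 and -0.80 in OR1, beside -0.05 and 0.03 over all genes. In OR1 25 genes were at most 0.5, against 12 in OR2 (24%, beside 8.7% of all genes). OR2 exceeded OR1 in 39 of 47 genes, and the share of all genes that did so was not counted.

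Of enzymes and channels, PROS1, the anticoagulant cofactor protein S, was at 326, 411 and 866 (2.59 in OR2, 1.44 in OR1). KCNK5, a potassium leak channel, was at 1198, 1279 and 2929 (2.38 in OR2, 1.22 in OR1), whereas KCNJ12, an inward rectifier, was lower at 136, 84.3 and 46.7 (0.334 in OR2, 0.707 in OR1). ALDH2, the mitochondrial aldehyde dehydrogenase, was at 260, 183 and 583 (2.18 in OR2, 0.802 in OR1). LIFR, the receptor for leukemia inhibitory factor, was at 40.9, 33.3 and 97.6 (2.32 in OR2, 0.927 in OR1). SPRY2, an inhibitor of receptor kinase signalling to ERK, was at 174, 215 and 381 (2.13 in OR2, 1.41 in OR1). It was the only one of 30 ERK feedback genes detected with the pattern (3.33%, beside 0.959% of all genes). The lipid transporter ABCA2 had a ratio of 2.31 on its brightest probe, but its other probe was not well above background in any line.

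Switched-on genes were dim in OR2, with intensities from 25.9 to 67.0, where the lowest probe well above background was at 12.6. Their technical SD was correspondingly large (median 0.76 on the log2 scale), and 43 of the 80 had no mRNA accession. The highest bound belonged to the long noncoding RNA lnc-CRIPT-1, at 8.86 in H1975 and 14.3 in OR1 against 67.0 in OR2, at least 5.19-fold higher. Its second probe (11.7, 15.1 and 20.9) was well above background in OR1 too, with bounds of at least 1.62-fold in OR2 and 1.37-fold in OR1. Of mRNAs, AGRP, a melanocortin receptor antagonist, was at least 4.16-fold higher (53.7 in OR2). ADAMTSL1, a secreted matrix protein without protease activity, was at least 3.84-fold higher on 1 probe and at background in every line on 3 others. FAM47E was at least 3.76-fold higher, with its other probe at background in every line. Cytochromes P450 appeared 3 times, as CYP4F12 (at least 3.40-fold), CYP2E1 (at least 3.35-fold) and CYP4X1 (at least 2.82-fold), and vitamin D hydroxylase CYP27B1 was measured in all lines at 42.0, 45.9 and 88.7 (2.05 in OR2). These were 4 of the 38 genes detected on at least 1 array in a list of P450 and lettered aldehyde dehydrogenase genes (10.5%, beside 0.959% of all genes). The 3 switched-on genes counted as detected only through OR2, where they are high, so this share cannot be read as an excess. Of the 27 listed genes detected in all lines, 1 was a member. WNT11, a noncanonical WNT ligand, was at 6.42, 2.82 and 43.2 (at least 3.34-fold), and INPP5D, a lipid phosphatase that acts on the product of PI3K, at 8.45, 14.0 and 37.3 (at least 2.89-fold).

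Switched-off genes were few and near background as well, with H1975 intensities from 24.8 to 53.2, and 30 of the 39 had no mRNA accession. The noncoding lnc-MCM5-1 had the lowest bound, at most 0.245 (53.2 in H1975 and 34.0 in OR1 against 13.4 in OR2). After EPHA4 came RPS6KL1, a kinase-like protein, at most 0.330, BEX5 at most 0.362, and TBX1, a T-box developmental factor, at most 0.369. Another TBX1 probe was at background in every line. NOSTRIN, which binds nitric oxide synthase, was at 27.8, 27.8 and 6.23 (at most 0.442), and LATS1, a kinase of the Hippo pathway, at 27.6, 20.4 and 9.18 (at most 0.445). HLA-DQB1, a class II antigen presentation gene, was at most 0.460 of H1975 on 1 probe and at background in every line on 4 others.

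Small Cajal body RNAs stood out among the lower members without an mRNA accession, a family chosen after the values were seen. These RNAs guide the chemical modification of spliceosomal RNAs, and the H/ACA kind ends shortly after an ACA triplet. The probes of the 6 members are shown because 6 of 20 detected genes of this family met the rule (30%, beside 0.738% of all genes), with an ACA within the last 8 bases in capitals (hg19, SCARNA11 and SCARNA12 on chromosome 12, SCARNA14 on 15, SCARNA1 and SCARNA4 on 1, SCARNA23 on X).
SCARNA11: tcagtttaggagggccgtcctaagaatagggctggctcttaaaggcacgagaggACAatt
SCARNA14: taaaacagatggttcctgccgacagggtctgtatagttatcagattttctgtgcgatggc
SCARNA1: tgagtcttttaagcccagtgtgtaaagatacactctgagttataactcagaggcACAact
SCARNA4: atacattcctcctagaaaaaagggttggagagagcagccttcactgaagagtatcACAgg
SCARNA23: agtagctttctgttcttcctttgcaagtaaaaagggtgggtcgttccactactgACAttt
SCARNA12: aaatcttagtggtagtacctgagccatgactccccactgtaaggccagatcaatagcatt
The triplet was there in 4 of 6 probes, in 57.1% of the 21 small Cajal body RNA probes and in 11.3% of all probes of 60 bases. SCARNA11 was at 461 in H1975 and 399 in OR1 against 106 in OR2 (0.223 in OR2, 0.987 in OR1). SCARNA14 was at 817, 613 and 221 (0.263 in OR2, 0.856 in OR1). SCARNA1 and SCARNA4 followed at 0.287 and 0.338, with OR1 at 0.731 and 0.738. SCARNA23 was at 0.363 in OR2 on its brightest probe, whereas a probe deposited under the same name but placed on chromosome 14 read 25.2, 22.4 and 31.8, a ratio of 1.23. SCARNA12 was the mildest at 0.443 in OR2 and 0.718 in OR1.

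Over the 20 small Cajal body RNAs well above background on all arrays the median log2 ratio was -0.91 in OR2 and -0.06 in OR1. In OR2 9 of them (45%, beside 8.7% of all genes) were at most 0.5, against 2 in OR1. OR2 lay below OR1 in 19 of the 20. Replication-dependent histone genes behaved alike in direction, with a median of -0.65 in OR2 and -0.14 in OR1 and OR2 below OR1 in 61 of 63. Only HIST1H1B (0.471) and HIST1H2BF (0.486) met the rule, 3.12% of the 64 detected, beside 0.738% of all genes. Box C/D and box H/ACA small nucleolar RNAs differed in another way: their medians were -0.02 and -0.24 in OR2 and 0.55 and 0.48 in OR1, with OR2 below OR1 in 102 of 108 and 88 of 92. Ribosomal protein genes, which host many of these RNAs in their introns, had OR2 below OR1 in 82 of 85 by a small margin (medians -0.12 and 0.16). Their 1 member was RPS26 (0.493), 1.15% of the 87 detected, beside 0.738% of all genes. Over all genes detected in all lines the medians were -0.05 in OR2 and 0.03 in OR1, and the share with OR2 below OR1 was not counted. The family counts of OR2 below OR1 therefore have no share of all genes beside them. Under spike-in scaling the OR1 medians shifted down with those of all genes, so that OR2 no longer lay below OR1 for histone genes (median log2 OR2/OR1 0.08), box C/D RNAs (0.14) or ribosomal protein genes (0.40). Relative to the median of all genes, the OR2/OR1 median stayed between -1.01 and -0.62 for small Cajal body RNAs and between -0.53 and -0.44 for histone genes over the scalings and background corrections tried. That of ribosomal protein genes ranged from -0.21 to -0.0016, so their difference was not kept in every setting. Small Cajal body RNAs, small nucleolar RNAs and replication-dependent histone mRNAs usually carry no poly(A) tail.

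**Figure D4:**
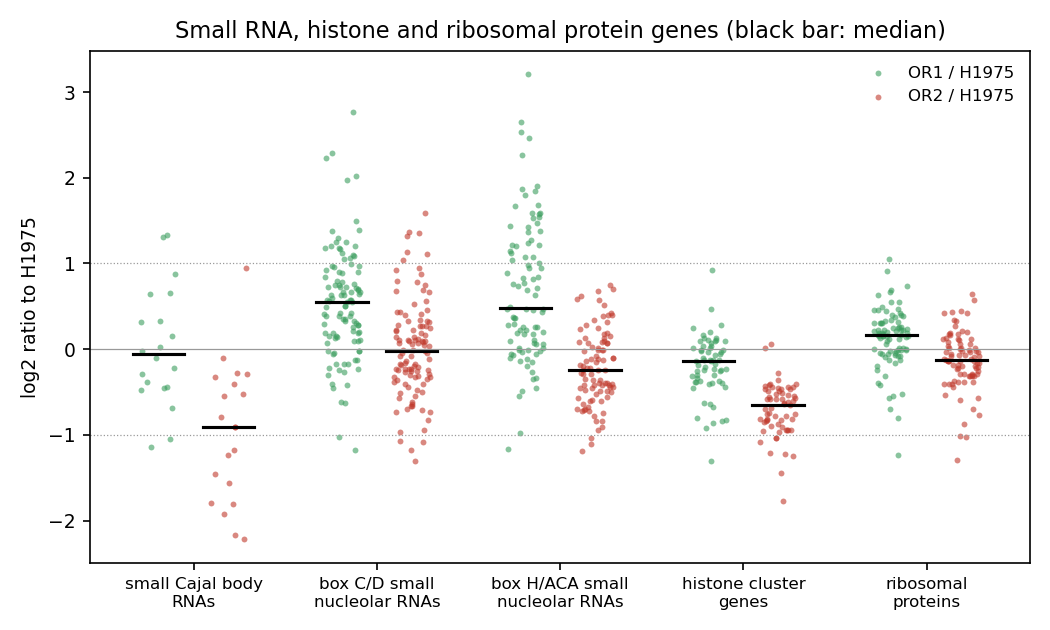
Log2 ratio to H1975 in OR1 (green) and OR2 (red) of each gene well above background on all arrays in 5 families, with the median as a black bar and dotted lines at 2-fold. The red points of small Cajal body RNAs and histone genes lie mostly under 0 (medians -0.91 and -0.65), while for the small nucleolar RNAs the green points lie mostly above 0.

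Neighbouring genes with OR2 on one side of OR1 formed runs on several chromosomes. The longest, of 34 measured genes at chr6:25999389-26378316 (hg19), ran from HIST1H1A to HIST1H4H and its neighbour BTN3A2 and had a median OR2/OR1 ratio of 0.655. The next held 20 genes at chr19:43965563-44501471, PLAUR and KCNN4 among them, with a median of 0.594, OR2 at 1.01 of H1975 and OR1 at 1.80. Of 2 runs of 16 genes, one was the second histone cluster at chr6:27775286-27861647 (0.642). The other, at chr7:110303658-116859157, held MET, CAV1 and CAV2 and had a median of 1.53, with OR2 at 0.751 of H1975 and OR1 at 0.472. Chromosome 7 held 5 runs in all, of 9 to 16 genes and with no member. Shorter runs included those of the IFIT and type VI collagen genes. At chr10:90774545-91179618 the run of FAS, LIPA, IFIT2, IFIT3, IFIT1 and IFIT5 had a median of 1.64, with OR2 at 1.02 of H1975 and OR1 at 0.767. At chr21:47394790-47609358 a run of 8 genes with COL6A1 and COL6A2 had a median OR2/OR1 of 1.68 and OR2/H1975 of 2.27. Apart from runs, members were spread over all chromosomes. Chromosome 9 held 20 of the 208 higher or switched-on members (2.18% of its 916 genes, beside 0.959% overall), NTNG2, FBP1, RXRA and ABCA2 among them. Chromosome 18 held 7 (2.24% of 313) and none of the lower ones. Chromosome 14 held 11 lower members (1.54% of 714), beside 0.738% overall. There were 6 pairs of members next to each other among measured genes, AHR and the noncoding XLOC_l2_013730 and the small nucleolar RNAs SNORD74 and SNORD75 among them. The number of pairs that random placement would give was not worked out.

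Other probes of the same genes, which the rule did not use, allow a check within the same arrays. Of the higher members, 26 genes had 30 further probes measured in H1975 and OR2, and 29 of these gave a ratio above 1 and 13 at least 2. Their median was 1.94 against 2.20 on the brightest probes. Of the lower members, 18 genes had 20 such probes, 19 below 1 and 7 at most 0.5, with a median of 0.628 against 0.455. Both conditions of the rule were met by 7 of the 30 and 6 of the 20 probes. The direction thus mostly held and the size was often smaller. The exceptions in direction were CHM, with 0.926 on its second probe, and the chromosome 14 probe named SCARNA23. With bounds counted too, the noncoding LOC101930611 (2.54 on its brightest probe) was a further exception, its second probe reading 63.8 in H1975 and not well above background in OR1 or OR2 (at most 0.192 in OR2). Many other probes gave nothing to compare, with a ratio or bound for 39 of 59 in higher and 28 of 44 in lower members. For switched genes the check was nearly empty, since 2 of 30 other probes of switched-on genes gave a bound, 1 of them past 2, and 4 of 12 of switched-off genes did, 0 of them past 0.5. Second probes of GFOD1 (0.988) and PRB3 (0.985) lay close to 1.

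**Figure D5:**
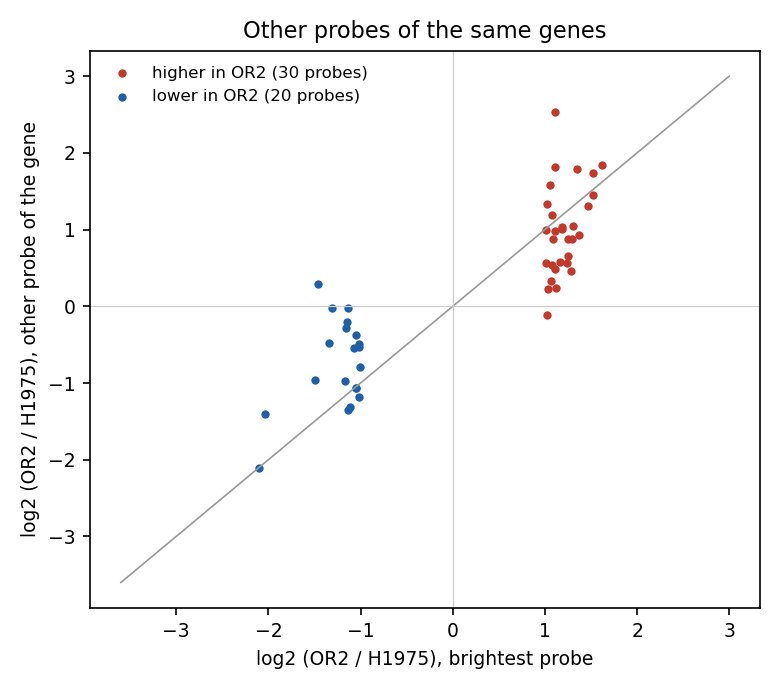
Log2 OR2/H1975 ratio on the brightest probe (horizontal) and on another measured probe of the same gene (vertical), 1 point per other probe, 30 for higher (red) and 20 for lower (blue) members, with the diagonal marking equal ratios. All but 1 red point lie above 0 and all but 1 blue point below it, 17 red and 13 blue ones within 2-fold of 1.

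Gene lists without a single member included integrin subunits, claudins, NOTCH pathway genes, YAP and TEAD targets, TNF ligands and receptors, and cell cycle genes. They had 25, 13, 22, 28, 35 and 49 detected genes in that order. Members were only 0.959% (higher) and 0.738% (lower) of all genes, so the absence of members in lists this small carries little information. Cell cycle genes had a median log2 ratio of -0.51 in OR2 and -0.32 in OR1. Of the 49 lists, 31 held at least 1 member, and 267 of the 368 members were in no list. Zinc finger genes gave 4 higher and 2 lower members of 480 detected. These shares of 0.833% and 0.417% lay below the 0.959% and 0.738% of all genes. ZNF91 (2.36), ZNF285 (2.18) and ZNF582 (2.11) were the highest. Other probes gave less, 1.48 in OR2 and 1.38 in OR1 for the ZNF91 mRNA NM_003430 and 1.46 in OR2 for ZNF582. Long noncoding RNAs gave 23 members in the higher and 26 in the lower direction of 2711 detected, 0.848% and 0.959% of them, beside 0.959% and 0.738% over all genes. The lowest was lnc-RP11-166B2.1.1-1, at 299 in H1975 and 253 in OR1 against 72.0 in OR2 (0.234 in OR2, 0.966 in OR1). Its other probe was at background in every line.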

How the data were processed

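For each line the authors amplified RNA into Cy3-labelled cRNA and hybridized it to 1 array. The deposited scanner files hold spot intensity corrected by the authors' Feature Extraction software for background and spatial trend, unscaled between arrays, the file header giving version 10.7.1.1 for its outlier flags and the submitters' processing notes 9.5.1.1. The deposited value table holds the authors' normalized intensity of the same arrays.

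Control probes and flagged outlier spots were left out, and log2 intensities were averaged over spots and centred on each array's 75th percentile. The brightest of a gene's probes over the 3 arrays stood for the gene. Where 1 line was not well above background, the ratio was bounded with the lowest such signal of that array. Technical SDs come from the software's error column. Positions are hg19 as deposited, and of 368 members 239 matched RefSeq by accession, 219 under the same symbol.

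The members, the 49 gene lists and the 4 added families were chosen with earlier results of these data known. Genes named are the 8 highest and 8 lowest, the 6 with the strongest bound each way, up to 3 of each list, 2 without an mRNA accession each way, those nearest each limit and the SRC family. Further genes were picked after their values were seen. No test was possible with 1 array per line, and the number of arrays limits the precision. Alternatives covered the scaling, background correction, filters, probe choice, ratios and window. The sorting into higher and lower genes was tried on simulated data. The changes were planted in OR2 only, in bright genes detected in all lines, and were larger than those of most members. Switched genes, bounds and changes in OR1 were not tried. Python 3.11.15, pandas 2.3.3, numpy 2.4.6 and limma 3.58.1 were used.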

Additional observations from a re-analysis of the deposited data

Results flagged for a closer look

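In 15 of the 368 members OR1 and OR2 lay on opposite sides of H1975 in the main scaling, each by more than its technical SD, and the difference between them was not tested. Of the lower genes COL1A1 was furthest above H1975 in OR1, at log2 0.54. Spike-in scaling moved the all-gene median log2 OR1/H1975 from 0.03 to -0.57. The side of H1975 on which OR1 lay for the lower and switched-off genes therefore depends on the scaling. Among the 8 lower genes COL1A1 in OR2 was at 0.127 of OR1 and COL16A1 at 0.356. CARD16, a caspase recruitment domain protein, was at 0.274, the cytidine deaminase APOBEC3D at 0.345 and the serine protease inhibitor SPINK5 at 0.389. The H/ACA small nucleolar RNAs SNORA28 and SNORA59B were at 0.354 and 0.389, and the noncoding RNA lnc-RP11-597K23.2.1-2 was at 0.431. Of switched-off genes, LOC101929470 was at most 0.317 of OR1, PPAPDC1A at most 0.347 and lnc-C1QTNF5-1 at most 0.364. The 4 higher genes went the other way, with PI16 at 3 times OR1, LCE5A at 2.86, ALDH2 at 2.72 and MX2 at 2.68.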

How the results depend on the processing

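The counts of higher, lower, switched-on and switched-off genes (128, 121, 80 and 39) stayed within 1.5 times under quantile normalization, median scaling, a percentile over detected probes, the authors' normalized values, the median over probes, agreement of all detected probes and kept outliers. Quantile normalization kept 333 of the 368 members. Without scaling there were 242 higher and 64 lower genes, and with spike-in scaling 614 higher, 14 lower and 11 switched off. Spike-in scaling kept 213 members, and all-gene median log2 OR1/H1975 was -0.16 without scaling. Normexp with an offset of 50 pulls dim ratios towards 1, leaving 61 higher, 39 lower, 0 switched on and 1 switched off, and 61 members. Plain ratios without a background filter gave 1083 higher and 639 lower genes. Ratios of 4 and 0.25 left 4, 10, 3 and 1 genes in the order above, and ratios of 1.5 and 0.67 gave 821, 1184, 219 and 145. An OR1 window from 0.8 to its inverse left 53 higher, 53 lower and 22 switched off, and one of 0.5 to 2 gave 350 higher and 371 lower. Requiring 2-fold between OR2 and OR1 too left 41 higher, 53 lower and 21 switched off.

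ABCA2 turned to 0.748 with the median over its probes. CSK turned to 1.013 under spike-in scaling and 1.02 with the percentile over detected probes, and LYN to 1.02 under quantile normalization and in the authors' values (1.02). Of 83 named ratios normexp moved 58 beyond their technical SD without turning any. A slide term could not be fitted with 1 slide, no spot was saturated, and on and off genes need a background filter. No paired analysis was possible because each line has 1 array.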
